A study of Homo sapiens with 16 samples.

Results

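The proteasome subunit genes were examined as 1 group: every gene whose symbol is PSMA, PSMB, PSMC, PSMD, PSME or PSMG followed by a number, together with PSMF1 and POMP. The rule uses names only, and it found 49 of the 23709 genes in the deposited tables. By role they are 7 alpha ring genes of the 20S core, 7 beta ring genes, 3 induced catalytic subunits, 6 ATPases and 11 non-ATPases of the 19S regulator, 3 chaperones of 19S base assembly, 4 activators, 1 inhibitor and 5 chaperones of core assembly. The other 2 are PSMA8, known as a testis form of an alpha subunit, and PSMB11, known as a thymus form of a catalytic subunit.

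The proteasome is the protease that degrades ubiquitin-tagged proteins in the cytosol and nucleus of every cell. Its 20S core is a stack of rings in which PSMB5, PSMB6 and PSMB7 carry the cutting sites, and the 19S regulator recognises, unfolds and feeds in the substrate. Interferon makes cells replace these catalytic subunits by PSMB8, PSMB9 and PSMB10, the immunoproteasome subunits, which change the peptides offered on MHC class I, and the transcription factor NFE2L1 is known to raise the constitutive genes together when proteasome activity falls.

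Each of the 16 groups is 1 library of polyA RNA from a lung cell line at passage 15 to 18. The carcinoma line H1299, from a non-small cell lung tumour, was transfected with the pCMV-N-Flag-FLII plasmid or the empty pCMV-N-Flag vector. HBE, a bronchial epithelial line, carried lentiviral shRNA against FLII, a stable knockdown, or the control labelled NC. FLII, flightless I, is an actin-binding protein of the gelsolin family. From each of these cells mRNA, RNA pelleted with ribosome-nascent chain complexes (RNC, after cycloheximide), cytosol RNA and nuclear RNA were sequenced. The labels give neither whether the knockdown line is 1 clone or a pool, nor what NC carries, nor how cytosol and nuclear RNA were separated.

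Reads assigned to genes numbered 5943676 to 8344359 per mRNA library, 26711771 to 38514467 per RNC library, 5914489 to 9259569 per cytosol library and 6295282 to 8201848 per nuclear library. Each fold below compares libraries, not conditions, since no group has a replicate; its 95% interval covers counting error only, and no p-value is given. Counts were scaled within each pair by TMM, 0.5 reads were added, and a gene entered a pair with at least 20 reads over both libraries. A gene was called at a fold of at least 2 with an interval that excluded no change. Levels are RPKM, read counts divided by gene length and by the assigned reads of the library. In bulk RNA, fewer cells with a transcript and less of it per cell cannot be told apart.

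The targeted gene was checked first. FLII had 625 and 143 RPKM in the FLII overexpression and vector mRNA libraries of H1299, and 13.8 and 75.3 RPKM in the FLII knockdown and NC mRNA libraries of HBE, and it kept these directions in cytosol and nuclear RNA. In the libraries labelled RNC it did not: FLII had 5.61 RPKM in that labelled H1299 FLII overexpression, against 89.2 in that labelled H1299 vector, and 30.0 RPKM in that labelled HBE FLII knockdown, against 36.5 in that labelled HBE NC. The line markers also went against these labels. KRT17, a basal keratin that stood at 1.92 to 45.6 RPKM in the mRNA, cytosol and nuclear libraries of H1299 and at 2107 to 4016 RPKM in those of HBE, had 2539 RPKM in RNC labelled H1299 FLII overexpression and 1.14 RPKM in that labelled HBE FLII knockdown. VIM, the mesenchymal filament gene, had 143 RPKM in the library labelled HBE FLII knockdown RNC and 204 RPKM in that labelled HBE NC RNC, against 0.685 to 2.91 RPKM in the other HBE libraries. The RNC libraries are therefore named by their labels throughout and kept out of the comparisons of mRNA, cytosol and nuclear RNA. Leukocyte RNA was near 0 in every library, with PTPRC at 0 to 0.0441 RPKM.

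Of the 49 genes, 47 passed the read minimum in every pair. PSMA8 had at most 2 reads and PSMB11 at most 5 reads in a library, and neither entered any comparison. PSMG3 and PSMD6 each have a named antisense gene, and the strand setting of the counting is not given in the sources used here, so reads of the pairs cannot be told apart; PSMG3-AS1 stood at 0.470 to 2.49 RPKM and PSMD6-AS2 at 0 to 0.284 RPKM. PSMC1 has 13 named pseudogenes in the annotation, PSMA6 has 4, PSMA2 and PSMD10 have 3 each, PSME2 has 2, and PSMA3, PSMB3, PSMB7, PSMD4, PSMD7, PSMD8 and PSMD12 have 1 each, so the counts of these genes are less certain where copies share reads.

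The upstream sequences of 6 genes on which the results turn are given first: PSMC4, PSMD8 and PSMG4, which were higher in H1299, PSME1, which was lower there, and the immunoproteasome genes PSMB9 and PSMB10. Each runs 5′ to 3′ from 250 bases before the annotated start to 50 bases after it, as listed in RefSeq for GRCh38.p14. Capitals mark matches on either strand to TGACNNNGC (the core of the antioxidant response element, the kind of site NFE2L1 and NFE2L2 bind), CCAAT (the CCAAT box), GAAANNGAA (a core of interferon regulatory factor sites) or TTCNNNGAA (the gamma-activated site). PSMC4 lies at chr19:39970915-39971214, plus strand; PSMD8 at chr19:38374321-38374620, plus strand; PSMG4 at chr6:3258697-3258996, plus strand. PSME1 lies at chr14:24135944-24136243, plus strand, PSMB9 at chr6:32853942-32854241, plus strand and PSMB10 at chr16:67936801-67937100, minus strand.
PSMC4: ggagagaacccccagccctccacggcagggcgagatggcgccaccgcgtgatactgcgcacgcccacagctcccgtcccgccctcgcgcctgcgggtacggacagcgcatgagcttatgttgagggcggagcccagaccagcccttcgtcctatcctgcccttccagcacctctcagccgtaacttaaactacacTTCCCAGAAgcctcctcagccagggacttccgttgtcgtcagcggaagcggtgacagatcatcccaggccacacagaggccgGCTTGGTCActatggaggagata
PSMD8: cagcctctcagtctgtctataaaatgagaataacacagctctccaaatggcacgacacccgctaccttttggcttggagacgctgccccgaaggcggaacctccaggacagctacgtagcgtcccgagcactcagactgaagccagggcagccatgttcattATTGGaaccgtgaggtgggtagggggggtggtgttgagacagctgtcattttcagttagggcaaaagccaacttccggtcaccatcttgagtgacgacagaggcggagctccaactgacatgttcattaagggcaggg
PSMG4: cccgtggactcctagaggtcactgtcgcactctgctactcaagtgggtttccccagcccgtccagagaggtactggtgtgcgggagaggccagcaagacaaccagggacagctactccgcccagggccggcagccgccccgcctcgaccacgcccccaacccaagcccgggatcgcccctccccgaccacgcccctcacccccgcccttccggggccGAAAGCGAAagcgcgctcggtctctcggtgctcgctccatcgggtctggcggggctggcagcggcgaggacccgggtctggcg
PSME1: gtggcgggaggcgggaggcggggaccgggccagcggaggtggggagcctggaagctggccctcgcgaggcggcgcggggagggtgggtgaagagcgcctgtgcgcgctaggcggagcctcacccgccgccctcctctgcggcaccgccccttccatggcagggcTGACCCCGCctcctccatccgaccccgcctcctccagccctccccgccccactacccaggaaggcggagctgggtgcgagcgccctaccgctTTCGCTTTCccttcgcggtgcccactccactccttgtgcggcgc
PSMB9: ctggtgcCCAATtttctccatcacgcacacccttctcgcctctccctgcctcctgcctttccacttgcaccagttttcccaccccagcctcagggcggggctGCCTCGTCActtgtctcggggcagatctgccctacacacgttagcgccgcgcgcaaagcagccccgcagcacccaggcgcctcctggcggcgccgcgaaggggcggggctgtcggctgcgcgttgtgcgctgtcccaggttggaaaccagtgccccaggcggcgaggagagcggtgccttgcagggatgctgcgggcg
PSMB10: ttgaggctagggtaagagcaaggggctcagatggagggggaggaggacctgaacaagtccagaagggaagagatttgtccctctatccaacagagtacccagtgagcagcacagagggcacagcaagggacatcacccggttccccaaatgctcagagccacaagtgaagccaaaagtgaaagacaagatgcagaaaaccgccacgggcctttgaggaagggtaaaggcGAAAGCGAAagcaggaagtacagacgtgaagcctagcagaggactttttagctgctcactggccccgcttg
The windows of PSMG4, PSME1 and PSMB10 hold an interferon regulatory factor core, those of PSMC4, PSME1 and PSMB9 an antioxidant response element core, those of PSMD8 and PSMB9 a CCAAT box, and that of PSMC4 a gamma-activated site. RefSeq windows were at hand for 43 of the 49 genes, not for PSMA7, PSMB1, PSMB6, PSMB7, PSMD4 and PSMG3. Over these 43, the antioxidant response element core was found in 13, the CCAAT box in 19, the interferon regulatory factor core in 8 and the gamma-activated site in 5. Over 27305 windows of the same length from all genes the shares with a match were 13.6%, 35.7%, 8.29% and 7.88% in the same order. A match is a run of letters, not a site shown to be bound.

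The 49 genes together held 0.853 and 0.870% of the assigned reads in the FLII overexpression and vector mRNA libraries of H1299, against 0.561 and 0.465% in the FLII knockdown and NC mRNA libraries of HBE. In cytosol RNA the shares were 0.793 and 0.820% in H1299, against 0.550 and 0.542% in HBE, and in nuclear RNA 1.01 and 1.07% in H1299, against 0.816 and 0.768% in HBE. The H1299 libraries lay above the HBE libraries within each of these 3 kinds of RNA. The libraries labelled RNC held 0.472 and 0.529% for FLII overexpression and vector H1299 and 0.602 and 0.572% for FLII knockdown and NC HBE. Most of the gap between the lines in mRNA lay in the 19S regulator: its non-ATPases held 0.319 and 0.329% of the mRNA reads in FLII overexpression and vector H1299, against 0.177 and 0.143% in FLII knockdown and NC HBE, and its ATPases 0.172 and 0.168% in H1299, against 0.0751 and 0.0511% in HBE. Alpha ring genes did not share it, with 0.0847 and 0.0855% in H1299 mRNA, against 0.106 and 0.0899% in HBE mRNA. Single genes weighed on both 19S classes. In vector H1299 mRNA PSMD8 had 6119 of the 19542 non-ATPase reads and PSMC4 3949 of the 10005 ATPase reads. In NC HBE mRNA PSMD8 had 1331 of 11834 reads and PSMC4 664 of 4226.

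**Figure D1:**
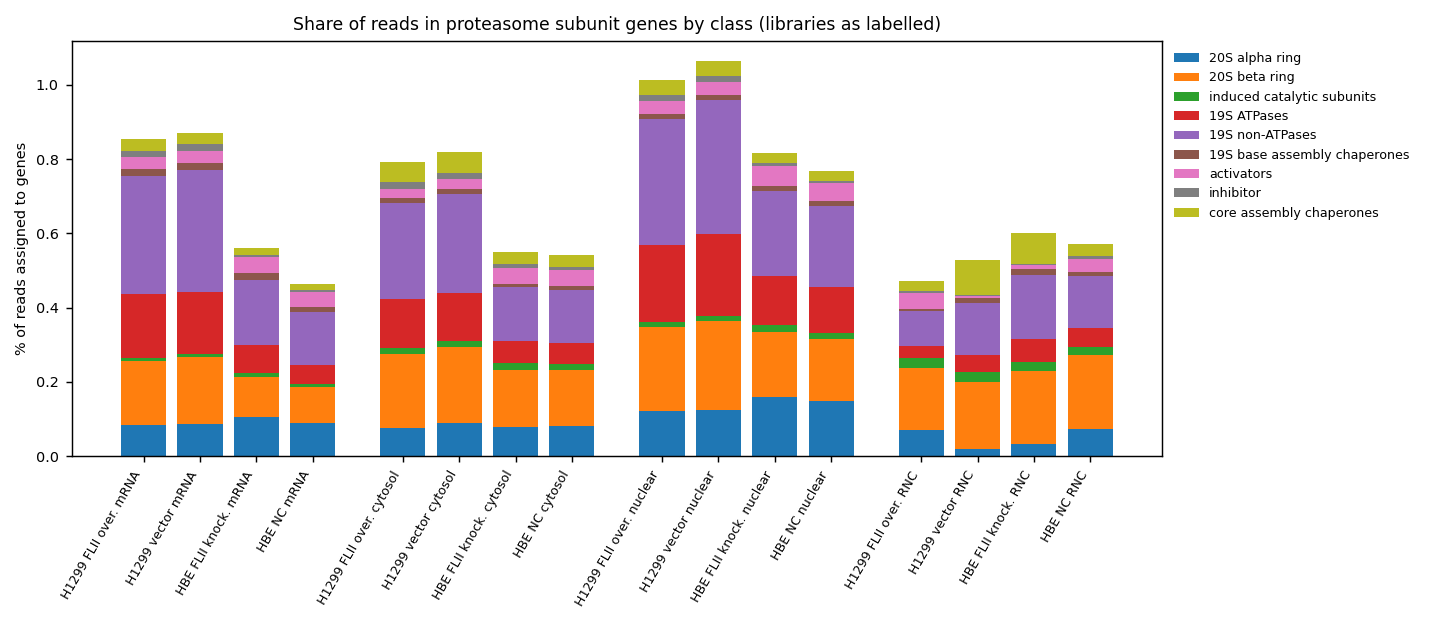
Stacked bars of the percent of assigned reads in each class of proteasome subunit genes (vertical axis) for the 16 libraries (horizontal axis, as labelled). The mRNA, cytosol and nuclear bars of H1299 reach 0.793% to 1.07%, against 0.465% to 0.816% for HBE, with the widest difference in the 19S classes.

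Members of 1 complex were far from equal in level. Over the 14 constitutive 20S genes the coefficient of variation of RPKM was 81.0% and 80.0% in the FLII overexpression and vector mRNA libraries of H1299, and 80.8% and 80.3% in the FLII knockdown and NC mRNA libraries of HBE. PSMA5, an alpha subunit, was the lowest of them per length in all 4 mRNA libraries, at 27.0 and 28.8 RPKM in H1299 and 26.2 and 23.3 RPKM in HBE. This rank rests on its annotated length of 3826 bases, where the other alpha genes have 998 to 1471. By reads it stood above PSMA3, with 656 against 346 in vector H1299 mRNA and 737 against 340 in NC HBE mRNA. PSMA7, another alpha subunit, was the highest in HBE mRNA at 442 and 374 RPKM, where PSMB1, a beta subunit without a cutting site, had 76.1 and 70.2 RPKM. In H1299 mRNA the order turned, with PSMB1 the highest at 459 and 481 RPKM and PSMA7 at 307 and 296 RPKM. In the 19S regulator PSMD8, a lid subunit, led H1299 mRNA with 619.7 and 669 RPKM, while PSMD2, the base scaffold that receives ubiquitin-like proteins, led HBE mRNA with 176 and 128 RPKM. PSMC6, an ATPase, was the lowest 19S gene in H1299 mRNA at 23.02 and 24.2 RPKM. Among the activators PSME4, the nuclear PA200 cap, was low in every library, at 0.508 to 8.95 RPKM.

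The catalytic subunits come in pairs of a constitutive gene and the induced gene that can take its place. PSMB5, with the chymotrypsin-like site, had 126 and 132 RPKM in FLII overexpression and vector H1299 mRNA, 230.2 and 231 in cytosol and 174 and 188 in nuclear RNA, against 169 and 145 RPKM in mRNA, 249.5 and 262 in cytosol and 290.1 and 273 in nuclear RNA of FLII knockdown and NC HBE. Its partner PSMB8 had 29.8 and 29.02 RPKM in H1299 mRNA, 37.2 and 43.1 in cytosol and 48.3 and 47.8 in nuclear RNA, against 30.3 and 26.7 RPKM in mRNA, 60.6 and 45.1 in cytosol and 75.6 and 57.9 in nuclear RNA of HBE. Of the pair, PSMB5 was the more abundant per length in every one of these libraries. PSMB6, with the caspase-like site, had 189.9 and 219 RPKM in H1299 mRNA, 420.2 and 424 in cytosol and 414 and 462 in nuclear RNA, against 134 and 109.9 RPKM in mRNA, 258 and 259.8 in cytosol and 265 and 245 in nuclear RNA of HBE. Its partner PSMB9 had 11.5 and 10.7 RPKM in H1299 mRNA, 43.2 and 44.0 in cytosol and 30.5 and 28.4 in nuclear RNA, against 12.7 and 12.9 RPKM in mRNA, 41.1 and 26.9 in cytosol and 34.8 and 18.6 in nuclear RNA of HBE. PSMB9 was the lowest of the catalytic genes in every mRNA library and stood under PSMB6 throughout. PSMB7, with the trypsin-like site, had 312 and 300.02 RPKM in H1299 mRNA, 236 and 217 in cytosol and 345 and 372 in nuclear RNA, against 165 and 147 RPKM in mRNA, 142 and 150.1 in cytosol and 277 and 264 in nuclear RNA of HBE. Its partner PSMB10 had 29.2 and 28.6 RPKM in H1299 mRNA, 58.1 and 57.8 in cytosol and 42.8 and 46.7 in nuclear RNA, against 37.9 and 36.6 RPKM in mRNA, 59.5 and 50.9 in cytosol and 54.7 and 51.1 in nuclear RNA of HBE. PSMB7 stood above PSMB10 in each of these libraries.

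Set against the sum of all 6 catalytic genes, the induced subunits made up 10.1 and 9.51% of the RPKM in FLII overexpression and vector H1299 mRNA, against 14.7 and 15.95% in FLII knockdown and NC HBE mRNA. In cytosol RNA the induced share was 13.5 and 14.2% in H1299, against 19.9 and 15.5% in HBE, and in nuclear RNA 11.5 and 10.7% in H1299, against 16.6 and 14.02% in HBE. For this summed share the 2 lines did not overlap in any of these kinds of RNA, and the highest HBE value was the FLII knockdown cytosol library. The pairs did not all follow the sum. PSMB10 as a share of its pair with PSMB7 was 8.55 and 8.70% in H1299 mRNA, 19.8 and 21.05% in cytosol and 11.03 and 11.2% in nuclear RNA, against 18.7 and 20.0% in mRNA, 29.6 and 25.3% in cytosol and 16.5 and 16.2% in nuclear RNA of HBE, with no overlap. PSMB9 as a share of its pair with PSMB6 was 5.72 and 4.68% in H1299 mRNA, 9.32 and 9.40% in cytosol and 6.86 and 5.80% in nuclear RNA, against 8.63 and 10.5% in mRNA, 13.7 and 9.38% in cytosol and 11.6 and 7.04% in nuclear RNA of HBE, with overlap in cytosol. PSMB8 as a share of its pair with PSMB5 went the other way in mRNA, at 19.2 and 18.0% in H1299, against 15.2 and 15.6% in HBE. In cytosol it was 13.9 and 15.7% in H1299, against 19.5 and 14.7% in HBE, and in nuclear RNA 21.7 and 20.3% in H1299, against 20.7 and 17.5% in HBE, and the lines overlapped in both. In the libraries labelled RNC, PSMB8, PSMB9 and PSMB10 had 65.2 and 41.5, 93.1 and 29.4 and 83.0 and 165 RPKM for FLII overexpression and vector H1299, and 39.4 and 28.0, 28.6 and 52.6 and 167 and 125 RPKM for FLII knockdown and NC HBE. PSMB5, PSMB6 and PSMB7 had 265 and 313, 274 and 449 and 150.4 and 254 RPKM in those labelled H1299 and 352 and 430.1, 487 and 384 and 288 and 206 RPKM in those labelled HBE. The induced share there was 25.9 and 18.9% in those labelled H1299 and 17.3 and 16.8% in those labelled HBE.

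The comparison of the lines shows which subunit genes a carcinoma line and a bronchial line hold at different levels. A set of 8 genes was called higher in H1299 in all 6 pairs, 3 kinds of RNA with 2 pairs each: the beta subunit PSMB1, the ATPases PSMC1, PSMC4 and PSMC5, the lid subunits PSMD7, PSMD8 and PSMD14, and the assembly chaperone PSMG4. Over all genes kept in the 6 pairs 10.7% were higher in all of them, a share that would be about 5 of 47. PSME1, the alpha subunit of the PA28 activator, was the 1 gene lower in all 6, where 12.1% of all genes were lower, a share that would be about 6 of 47. The remaining 38 genes were called in some pairs or in none. With total counts in place of TMM, the median of all genes moved up in H1299 over HBE by 0.10 and 0.27 in mRNA (FLII overexpression over knockdown, then vector over NC), by 0.33 and 0.47 in cytosol and by 0.25 and 0.24 in nuclear RNA, on the log2 scale.

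PSMB1 showed the widest gap of the core genes. It had 459 and 481 RPKM in FLII overexpression and vector H1299 mRNA, 345 and 369 in cytosol and 636 and 652 in nuclear RNA, against 76.1 and 70.2 RPKM in mRNA, 35.4 and 32.5 in cytosol and 93.3 and 92.5 in nuclear RNA of FLII knockdown and NC HBE. The lowest H1299 library lay above the highest HBE library, and the log2 folds spanned 2.49 to 3.04. No other ring gene was called higher in more than 1 pair: PSMA2, an alpha subunit, reached 1.14 (0.90 to 1.39) in cytosol of vector H1299 over NC HBE. PSMA1, an alpha subunit, was called lower in 5 of the 6 pairs, with log2 folds of −1.26 to −0.72. PSMA5 was called lower in 1, at −1.08 (−1.23 to −0.93) in nuclear RNA of FLII overexpression H1299 over FLII knockdown HBE. Among the induced subunits PSMB8 was called lower in 1 pair, at −1.03 (−1.22 to −0.84) in cytosol of FLII overexpression H1299 over FLII knockdown HBE.

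The ATPase ring was split. PSMC4 had 336 and 347 RPKM in FLII overexpression and vector H1299 mRNA, against 52.8 and 41.9 RPKM in FLII knockdown and NC HBE mRNA. Vector H1299 over NC HBE gave a log2 fold of 2.78 (interval 2.66 to 2.90), 6.88-fold, the highest of all members in that pair. In cytosol PSMC4 had 283 and 258 RPKM in H1299, against 92.1 and 91.1 RPKM in HBE, where the folds were 1.29 and 1.03. PSMC5 had 260.2 and 257 RPKM in H1299 mRNA, against 80.3 and 53.4 RPKM in HBE mRNA, with folds of 1.02 to 2.00 over the 6 pairs. PSMC1 had 182 and 166 RPKM in H1299 mRNA, against 58.3 and 43.7 RPKM in HBE mRNA, with folds of 1.51 to 2.28. With median-of-ratios scaling the cytosol folds of PSMC4, PSMC5 and the lid gene PSMD7 from vector H1299 over NC HBE fell under 2-fold and stayed above 0. The other ATPases were not called in any pair: PSMC2 spanned −0.52 to 0.88, PSMC3 −0.83 to 0.17 and PSMC6 −0.72 to 0.63, each with both signs.

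The lid and base non-ATPases were led by PSMD8. It had 619.7 and 669 RPKM in FLII overexpression and vector H1299 mRNA, 774 and 783 in cytosol and 615 and 671 in nuclear RNA, against 116 and 105 RPKM in mRNA, 206 and 209.9 in cytosol and 163 and 165 in nuclear RNA of FLII knockdown and NC HBE. The lines did not overlap, and the log2 folds spanned 1.43 to 2.41. PSMD14, the lid enzyme that removes ubiquitin chains, had 100.2 and 111 RPKM in H1299 mRNA, against 33.1 and 30.3 RPKM in HBE mRNA, with folds of 1.38 to 1.95. PSMD7, its inactive partner in the lid, had 142 and 146 RPKM in H1299 mRNA, against 56.5 and 51.4 RPKM in HBE mRNA, with folds of 1.02 to 1.34. PSMD4, a ubiquitin receptor, was called higher in both mRNA pairs (1.16 for FLII overexpression over knockdown and 1.36 for vector over NC) and in 1 cytosol pair (1.14 for FLII overexpression over knockdown). PSMD1, a base scaffold, was called higher in the 4 cytosol and nuclear pairs (1.03 to 1.47) and not in mRNA (0.27 and 0.68). PSMD3, a lid subunit, went the other way, called lower in 3 of the 4 cytosol and nuclear pairs (−1.20 to −0.95 over the 4) with 0.11 and −0.05 in mRNA. PSMD2, PSMD6, PSMD11, PSMD12 and PSMD13 were not called in any pair, nor were the base chaperones PSMD5, PSMD9 and PSMD10.

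**Figure D2:**
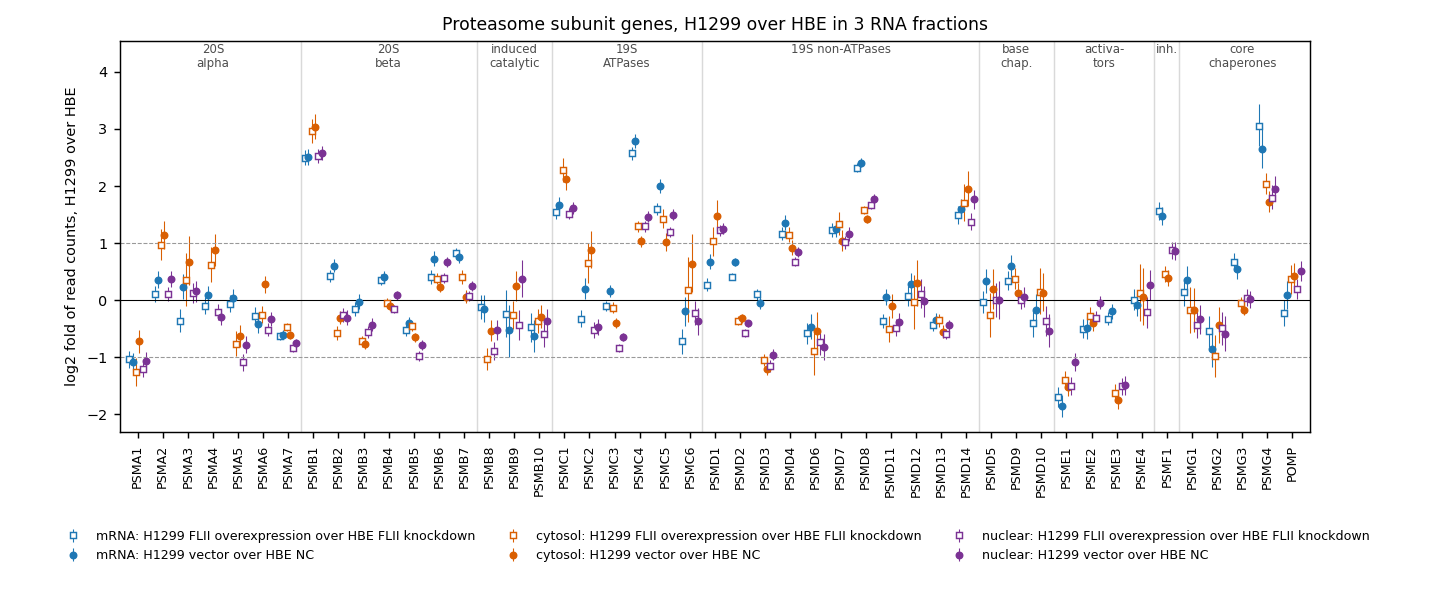
Log2 fold of read counts, H1299 over HBE (vertical axis), for the 47 measured proteasome genes by class (horizontal axis), with the FLII overexpression over knockdown pair and the vector over NC pair in mRNA, cytosol and nuclear RNA; bars are 95% counting intervals and dashed lines mark 2-fold. PSMB1, PSMC1, PSMC4, PSMC5, PSMD7, PSMD8, PSMD14 and PSMG4 lie above the upper line and PSME1 below the lower line in all 6 pairs.

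Of the 4 activators PSME1 was called lower in H1299 throughout, PSME3 in cytosol and nuclear RNA, and PSME2 and PSME4 in no pair. PSME1 had 38.6 and 42.0 RPKM in FLII overexpression and vector H1299 mRNA, 63.4 and 57.9 in cytosol and 60.7 and 66.5 in nuclear RNA, against 117 and 126 RPKM in mRNA, 133 and 119.9 in cytosol and 145 and 119 in nuclear RNA of FLII knockdown and NC HBE. Every H1299 library lay below every HBE library, and the log2 folds spanned −1.85 to −1.08; with total counts it stayed below 0 but no longer passed 2-fold in all 6 pairs. Its partner PSME2, the other PA28 subunit, spanned −0.50 to −0.04 and was not called in any pair. PSME3, the nuclear PA28 gamma cap, was called lower in the 4 cytosol and nuclear pairs (−1.76 to −1.49), at 18.3 and 18.5 RPKM in H1299 cytosol, against 45.0 and 45.1 RPKM in HBE cytosol, but not in mRNA, where it had 38.2 and 38.4 RPKM in H1299, against 44.6 and 36.6 RPKM in HBE. PSMF1, the PI31 inhibitor, was called higher in both mRNA pairs (1.47 to 1.56) and in no cytosol or nuclear pair (0.39 to 0.87). Of the core chaperones PSMG4 had 89.8 and 75.5 RPKM in H1299 mRNA, 230.2 and 233 in cytosol and 130.4 and 143 in nuclear RNA, against 10.1 and 9.92 RPKM in mRNA, 44.5 and 50.8 in cytosol and 31.6 and 31.1 in nuclear RNA of HBE. Its log2 folds spanned 1.73 to 3.05, and the mRNA count in HBE was 71 and 77 reads in the FLII knockdown and NC libraries. PSMG1, PSMG2, PSMG3 and POMP were not called in any pair.

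Between 1.5-fold and 2-fold lay members whose intervals excluded no change in some line pairs. The share of all genes past 1.5-fold was not counted for these pairs, so the members are listed and no result about them as a group is drawn. Lower in H1299 in this range were PSMA7 (−0.84 to −0.47 over the 6 pairs), PSMB5 (−0.98 to −0.40), PSMD6 (−0.88 to −0.46), PSMG2 (−0.97 to −0.44), PSMB10 (−0.62 to −0.29), PSMD13 (−0.59 to −0.35) and PSMB3 (−0.77 to −0.03), each below 0 in all 6, and PSMC3. Higher in this range were PSMB6 (0.24 to 0.73), PSMB7 (0.06 to 0.82) and PSMD9 (0.01 to 0.60), each above 0 in all 6. PSMA3 (−0.36 to 0.68), PSMA4 (−0.30 to 0.88), PSMB2 (−0.57 to 0.61), PSMC2, PSMC6, PSMD2 (−0.58 to 0.67) and PSMG3 (−0.16 to 0.67) passed 1.5-fold upward in some pairs and stood below 0 in others. With total counts each of these folds moves by the shift of its pair given above, which is as large as some of them.

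By pair, 10 members were higher and 2 lower of 47 in mRNA of vector H1299 over NC HBE, where 21.2% and 22.4% of all genes were, and 10 and 2 in FLII overexpression H1299 over FLII knockdown HBE, with 21.5% and 20.7% of all genes. In cytosol 10 were higher and 3 lower for vector over NC, with 26.7% and 22.2% of all genes, and 10 and 5 for FLII overexpression over knockdown, with 22.5% and 22.5%. In nuclear RNA 9 were higher and 3 lower for vector over NC, with 22.3% and 23.1% of all genes, and 9 and 5 for FLII overexpression over knockdown, with 22.6% and 23.4%. The counts of higher members stood close to the background in each pair, and those of lower members under it. The median log2 fold of the members less that of all genes was −0.04 and 0.21 in mRNA, −0.08 and −0.01 in cytosol and −0.19 and −0.01 in nuclear RNA (FLII overexpression over knockdown, then vector over NC). When 100 reads over both libraries were asked of a gene, the same differences were 0.01 and 0.28 in mRNA, 0.08 and 0.17 in cytosol and −0.07 and 0.12 in nuclear RNA, so 4 of the 6 signs turned and no direction of the members as a group is drawn from them.

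Of the 28 other ubiquitin pathway genes listed, UFD1L, a cofactor of the VCP segregase, was called higher in H1299 in all 6 pairs, with log2 folds of 1.16 to 2.17. Over all genes 10.7% were higher and 12.1% lower in all 6. In mRNA of vector H1299 over NC HBE 4 of the 28 were higher and 2 lower, where 21.2% and 22.4% of all genes were. Among them were AKIRIN2, which carries proteasomes into the nucleus (1.30), and UCHL5, a proteasome-bound deubiquitinase (−1.01). NFE2L1 was not called in these line pairs, with log2 folds of −0.09 to 0.66. Of 14 antigen processing genes 1 was higher and 4 were lower in that mRNA pair, beside the same shares of all genes. HLA-B was called higher in all 6 pairs (3.44 to 5.00) and NLRC5, the activator of MHC class I genes, lower in all 6 (−2.39 to −1.29).

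**Figure D3:**
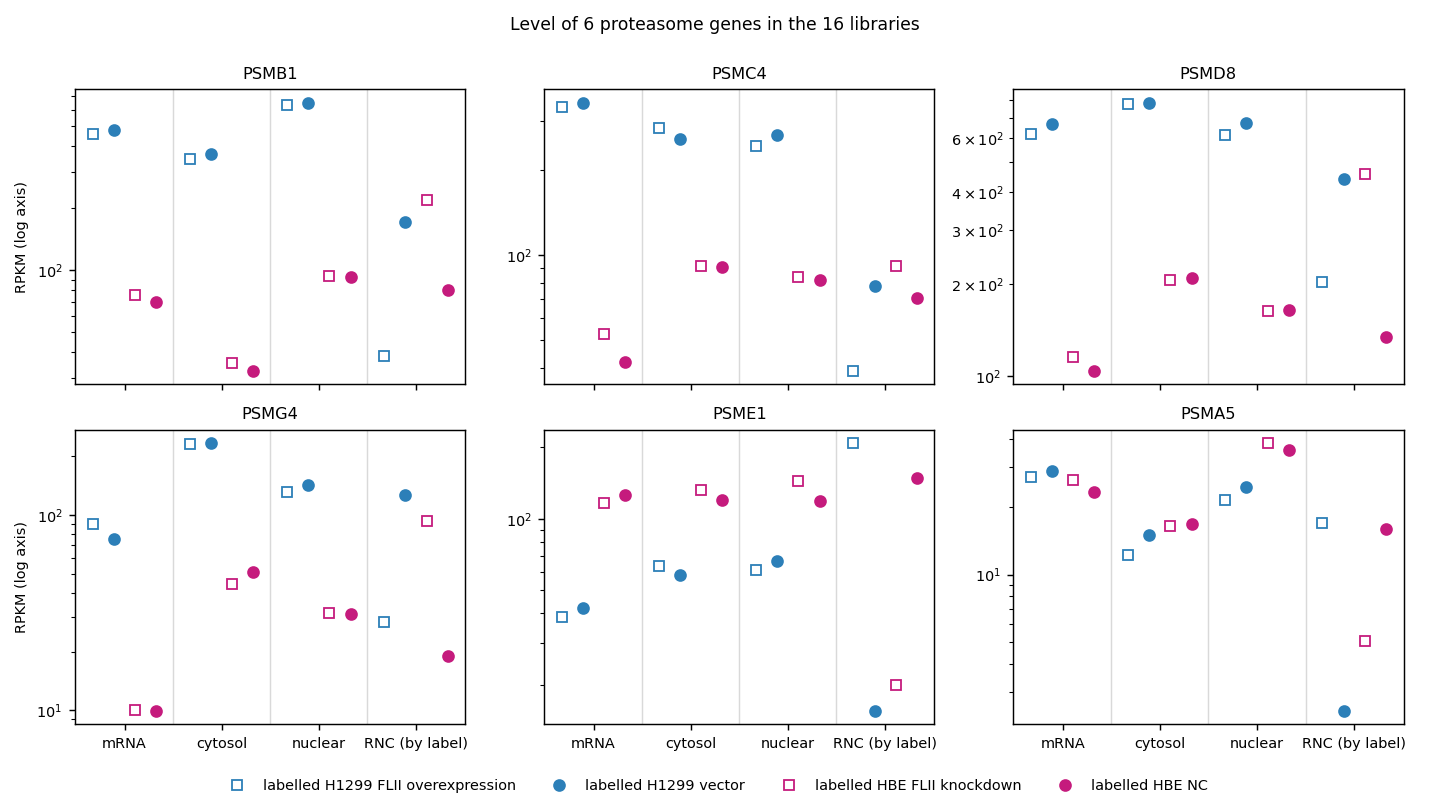
RPKM (log axis) of PSMB1, PSMC4, PSMD8, PSMG4, PSME1 and PSMA5 in the 16 libraries, grouped by kind of RNA; open squares are FLII overexpression (H1299, blue) and FLII knockdown (HBE, pink), filled circles are vector (H1299, blue) and NC (HBE, pink). For the first 5 genes the lines are apart in mRNA, cytosol and nuclear RNA, while in RNC the library labelled H1299 FLII overexpression has 38.2 RPKM of PSMB1 and 208 of PSME1, against 171 and 15.5 in that labelled H1299 vector.

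Within a line, the FLII pairs address whether subunit genes differ with the level of FLII. In mRNA, cytosol and nuclear RNA no proteasome gene was called at 2-fold in either line. Over all genes the share called in either direction was 0.798% in H1299 mRNA, 2.68% in H1299 cytosol and 0.599% in H1299 nuclear RNA, and 4.95% in HBE mRNA, 1.25% in HBE cytosol and 0.873% in HBE nuclear RNA. At shares this low a count of 0 among 47 says little about the members.

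At the lower limit of 1.5-fold, with an interval excluding no change, FLII overexpression H1299 over vector had 0 of 47 members higher and 0 lower in each of the 3 kinds of RNA. The shares of all genes were 0.798% higher and 1.07% lower in mRNA, 2.01% and 6.35% in cytosol and 1.55% and 0.683% in nuclear RNA. The highest H1299 members in mRNA were PSMG4 (0.27, interval 0.09 to 0.44), PSMC3 (0.16) and PSMC1 (0.15), and the lowest PSMA3 (−0.29, interval −0.51 to −0.08), PSMB6 (−0.19) and PSMG1 (−0.18). PSMG4 had 703 and 421 reads there in the FLII overexpression and vector libraries, 89.8 and 75.5 RPKM. In cytosol the lowest were PSMD6 (−0.57, interval −0.97 to −0.18), the alpha subunit PSMA1 (−0.56, interval −0.80 to −0.32) and PSMC6 (−0.54), and the highest PSMC5 (0.30, interval 0.20 to 0.41), PSMC3 (0.22) and PSMC4 (0.21). PSMD6 rested on 79 and 183 reads and PSMA1 on 212 and 487 reads in the FLII overexpression and vector cytosol libraries. The folds in that pair ran with base composition: across the 47 genes the log2 fold and transcript GC content had a Spearman coefficient of 0.65, and across all genes 0.52, with the 2 libraries shared by every point. The HBE marker KRT17 also moved with this pair, at 45.6 and 2.95 RPKM in FLII overexpression and vector cytosol, and its part in the result was not tested. In nuclear RNA the lowest were PSME4 (−0.42, interval −0.69 to −0.15), PSMD3 (−0.27) and PSMA5 (−0.23), and the highest PSMC6 (0.23), PSMD5 (0.19) and PSMD10 (0.18).

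In HBE the FLII knockdown over NC gave 1 of 47 members past 1.5-fold in each kind of RNA, all higher, and 0 lower. The shares of all genes were 5.71% higher and 7.27% lower in mRNA, 1.72% and 1.46% in cytosol and 1.72% and 1.08% in nuclear RNA, close to 1 in 47 in the last 2 for the higher direction. In mRNA it was the ATPase PSMC2, with 36.5 and 20.9 RPKM in the FLII knockdown and NC libraries and a log2 fold of 0.67 (interval 0.51 to 0.84). In cytosol and nuclear RNA PSMC2 had −0.02 and 0.06. The 6 ATPases were all above 0 in that mRNA pair, with a median of 0.45, next to PSMC6 at 0.49 and PSMC5 at 0.46; their medians were −0.03 in cytosol and 0.07 in nuclear RNA. With total counts the median of all genes in the HBE mRNA pair moved by 0.13. Across the 47 genes the log2 folds of that pair had Spearman coefficients of −0.39 with GC content and 0.36 with transcript length. Over all genes these were −0.26 and 0.03. A GC trend was removed for the count of called members and for their median alone. The part of base composition or length in the folds of PSMC2 and the other ATPases was not tested. The lowest members in HBE mRNA were PSME1 (−0.24, interval −0.36 to −0.12), PSMG2 (−0.20) and PSMB9 (−0.15).

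In HBE cytosol and nuclear RNA the member past 1.5-fold was PSMB9. Its reads numbered 284 and 167 in the FLII knockdown and NC cytosol libraries and 300 and 143 in the nuclear libraries, or 41.1 and 26.9 RPKM in cytosol and 34.8 and 18.6 RPKM in nuclear RNA. The log2 folds were 0.59 (interval 0.31 to 0.88) in cytosol and 0.87 (interval 0.58 to 1.17), 1.83-fold, in nuclear RNA. In mRNA PSMB9 had 100 and 112 reads in the FLII knockdown and NC libraries, with −0.15 (−0.56 to 0.25), an interval that holds no change. PSMB8 came next in both, at 0.41 (0.23 to 0.59) in cytosol and 0.35 (0.21 to 0.50) in nuclear RNA, and it had 0.05 in mRNA. PSMB10 had 0.21 in cytosol, 0.06 in nuclear RNA and −0.08 in mRNA, with intervals that hold no change. PSMB9 as a share of its pair with PSMB6 was 13.7 and 9.38% in FLII knockdown and NC cytosol, 11.6 and 7.04% in nuclear RNA and 8.63 and 10.5% in mRNA. The 14 antigen processing genes of the same cells were above 0 for 13 in cytosol (median 0.23, all genes 0.00) and 13 in nuclear RNA (median 0.21, all genes 0.01), with 0 past 2-fold, and for 5 in mRNA (median −0.25). That list was chosen with earlier results of these data known, so it is not independent of the PSMB9 folds. The next highest members were PSMD1 in cytosol (0.24) and PSMA2 in nuclear RNA (0.26), and the lowest PSMD10 (−0.40, interval −0.81 to 0.01), PSMD7 (−0.38) and PSMC1 (−0.31) in cytosol and PSMA4 (−0.18, interval −0.31 to −0.05), PSMD3 (−0.07) and PSMG3 (−0.06) in nuclear RNA. The H1299 pairs of FLII overexpression over vector gave PSMB9 0.12 in mRNA, 0.05 in cytosol and 0.07 in nuclear RNA.

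Small changes in all 3 kinds of RNA were rare. In H1299 PSMD14 was lower with intervals that excluded no change in each, at 100.2 and 111 RPKM in FLII overexpression and vector mRNA, 37.8 and 52.1 in cytosol and 114 and 122 in nuclear RNA. Its log2 folds were −0.13 (−0.24 to −0.02), −0.39 (−0.56 to −0.22) and −0.13 (−0.25 to −0.02). With total counts the folds of the H1299 nuclear pair move up by 0.035, past the upper limit of −0.02, so by that scaling PSMD14 would not meet this rule. The same rule was met by 0.111% of all genes for lower and 0.0855% for higher, and 0 members met the second. In HBE PSMD2 was higher in each, at 176 and 128 RPKM in FLII knockdown and NC mRNA, 133 and 122 in cytosol and 208 and 193 in nuclear RNA. Its log2 folds were 0.33 (0.26 to 0.40), 0.11 (0.02 to 0.19) and 0.08 (0.02 to 0.14), all under 1.5-fold, and the rule was met by 1.08% of all genes for higher and 1.9% for lower, with 0 members in the second. Over all members the median log2 fold less that of all genes was −0.01 in H1299 mRNA, 0.03 in cytosol and −0.07 in nuclear RNA, and 0.08 in HBE mRNA, −0.01 in cytosol and 0.05 in nuclear RNA. Members above 0 numbered 23, 24 and 14 of 47 in H1299 and 35, 21 and 36 of 47 in HBE, where the shares over all genes were 50.6%, 46.7% and 49.6% in H1299 and 50.6%, 50.8% and 51.1% in HBE.

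Of the 28 other ubiquitin pathway genes, 27 or 28 of which were measured in a pair, 0 were called at 2-fold in either direction in any of these 6 pairs. Over all genes the shares called were 0.599% to 4.95%. The medians of the ubiquitin pathway genes were 0.04, 0.02 and −0.09 in H1299 and 0.00, −0.03 and −0.01 in HBE (mRNA, cytosol and nuclear RNA). NFE2L1 had 0.04, 0.15 and −0.10 in H1299 and −0.23, −0.13 and −0.04 in HBE in the same order. Of the 14 antigen processing genes 0 were called in H1299 in mRNA, cytosol or nuclear RNA, with medians of 0.04, 0.18 and 0.04.

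**Figure D4:**
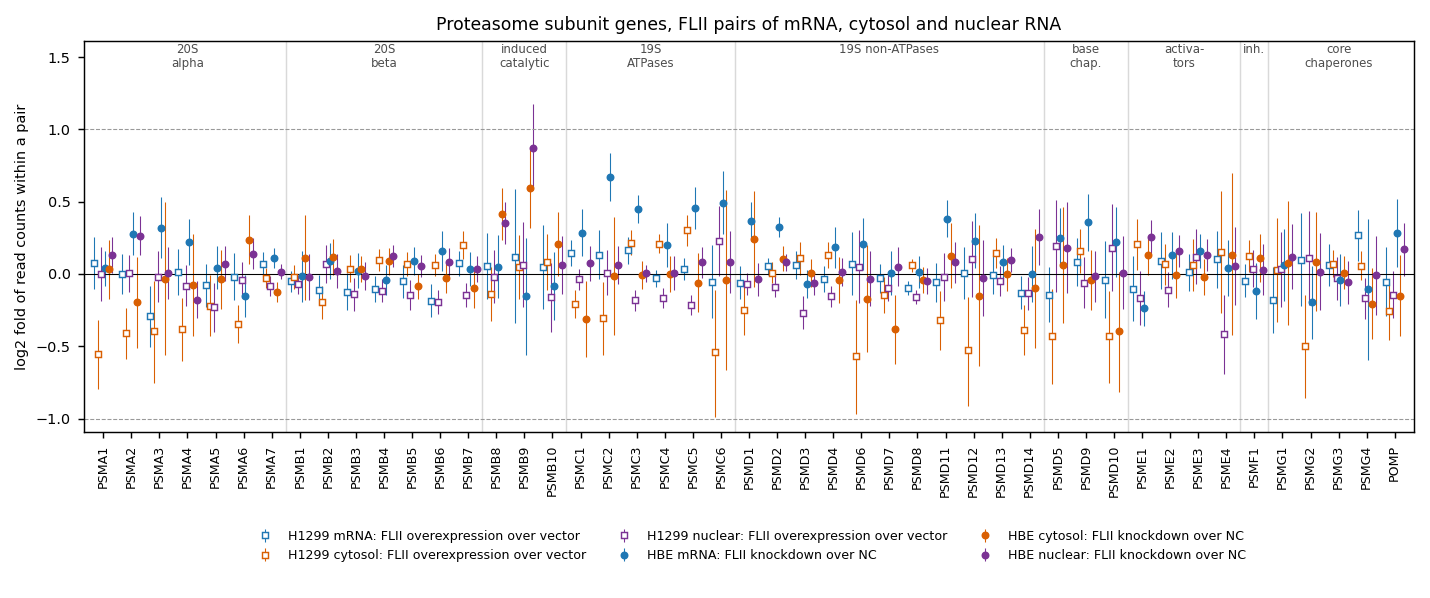
Log2 fold of read counts within the FLII pairs (vertical axis) for the 47 measured proteasome genes by class (horizontal axis); open squares are FLII overexpression over vector in H1299 and filled circles FLII knockdown over NC in HBE, coloured by kind of RNA, with 95% counting intervals and dashed lines at 2-fold. No gene reaches a dashed line, and PSMB9 in HBE nuclear RNA is the highest point at 0.87.

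Nuclear over cytosol levels show where a transcript was more abundant relative to the other transcripts of the same fraction. PSMA3, an alpha subunit, the ATPase PSMC6 and the base scaffold PSMD1 were called higher in nuclear RNA in all 4 cell groups, where 8.41% of all genes were. The core chaperones PSMG3 and PSMG4 were called lower in all 4, where 9.2% of all genes were. PSMD1 had 133 and 136 RPKM in nuclear RNA of FLII overexpression and vector H1299, against 21.2 and 26.6 RPKM in their cytosol, and 48.0 and 48.2 RPKM in nuclear RNA of FLII knockdown and NC HBE, against 8.27 and 6.92 RPKM in their cytosol. Its log2 folds spanned 1.98 to 2.26. PSMC6 spanned 1.03 to 2.17 and rested on 44 to 148 reads in the cytosol libraries. PSMA3 had 84.6 and 83.6 RPKM in H1299 nuclear RNA, against 16.2 and 22.5 RPKM in cytosol, and 65.1 and 63.4 RPKM in HBE nuclear RNA, against 10.0 and 10.2 RPKM in cytosol, with folds of 1.56 to 2.13.

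PSMG3 had 85.4 and 85.1 RPKM in nuclear RNA of FLII overexpression and vector H1299, against 178 and 178 RPKM in cytosol, and 69.8 and 71.1 RPKM in nuclear RNA of FLII knockdown and NC HBE, against 147 and 144 RPKM in cytosol. Its folds spanned −1.63 to −1.39 and those of PSMG4 −1.36 to −1.03. PSMB9 was called lower in 2 groups, −1.04 (−1.31 to −0.78) in FLII overexpression H1299 and −1.07 (−1.41 to −0.74) in NC HBE, and stood at −0.96 in vector H1299 and −0.79 in FLII knockdown HBE. PSMB3, a beta subunit, was called lower in both HBE groups (−1.07 with FLII knockdown and −1.01 in NC), and PSMF1 with FLII knockdown alone (−1.02), next to −0.94 in NC. PSMC2 was called higher in both HBE groups (2.42 with FLII knockdown and 2.35 in NC) and in FLII overexpression H1299 (1.19), and PSMA4, an alpha subunit, likewise (1.92, 2.03 and 1.03). PSMA2 and PSMC1 were called higher in the 2 HBE groups, at 1.77 and 1.51 with FLII knockdown and 1.31 and 1.12 in NC. PSMD14 was called in all but vector H1299, where it had 0.90; PSME4 was called in all but FLII overexpression H1299, where it had 0.72. PSMC5 was called in vector H1299 (1.34) and FLII knockdown HBE (1.01), PSMD6 in FLII overexpression H1299 (1.17) and FLII knockdown HBE (1.09), and PSMD12 in FLII overexpression H1299 (1.00). Between 1.5-fold and 2-fold, with no call in any group, PSMG1 stood higher in all 4 (0.66 to 0.98), and PSMA1, PSMA5, PSMB1, PSMC3, PSMD4, PSMD7 and PSMD10 in 1 or 2 of them, among which PSMB1 spanned 0.34 to 0.97 and PSMD7 0.53 to 0.96. On the lower side PSMB10 (−0.98 to −0.53), PSMB2 (−0.74 to −0.50), PSMC4 (−0.76 to −0.28) and PSMD8 (−0.90 to −0.55) passed 1.5-fold in 3 groups, PSMB5 (−0.95 to −0.34) in 2, and PSMB6, PSMD9, PSME1 and PSME3 in 1 each. The share of all genes past 1.5-fold was not counted here either.

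By group, 8 members were higher and 3 lower of 47 in FLII overexpression H1299, with 17.9% and 18.3% of all genes, and 5 and 2 in vector H1299, with 14.8% and 12.7%. In FLII knockdown HBE 11 were higher and 4 lower, with 23.9% and 17.6% of all genes, and in NC HBE 9 and 4, with 22.8% and 17%. Counts of higher members were near the background and counts of lower members below it. The ATPases had medians of 0.70 and 0.80 in FLII overexpression and vector H1299 and 1.26 and 1.00 in FLII knockdown and NC HBE, and the beta ring genes −0.50, −0.20, −0.34 and −0.48 in the same order. With total counts the median of all genes moved up by 0.54, 0.33, 0.56 and 0.54 in that order, so the sign of a class median near 0 rests on the scaling. Base composition ran with these folds too: across the 47 genes the log2 fold and GC content had Spearman coefficients of −0.75 and −0.56 in FLII overexpression and vector H1299 and −0.70 and −0.67 in FLII knockdown and NC HBE, where those over all genes were −0.62, −0.44, −0.62 and −0.61. The part of base composition in these folds was not tested. Of the ubiquitin pathway genes 3 of 27 were called higher in nuclear RNA and 3 lower in FLII overexpression H1299, 4 and 2 in vector H1299, 4 and 4 in FLII knockdown HBE and 6 and 4 in NC HBE.

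**Figure D5:**
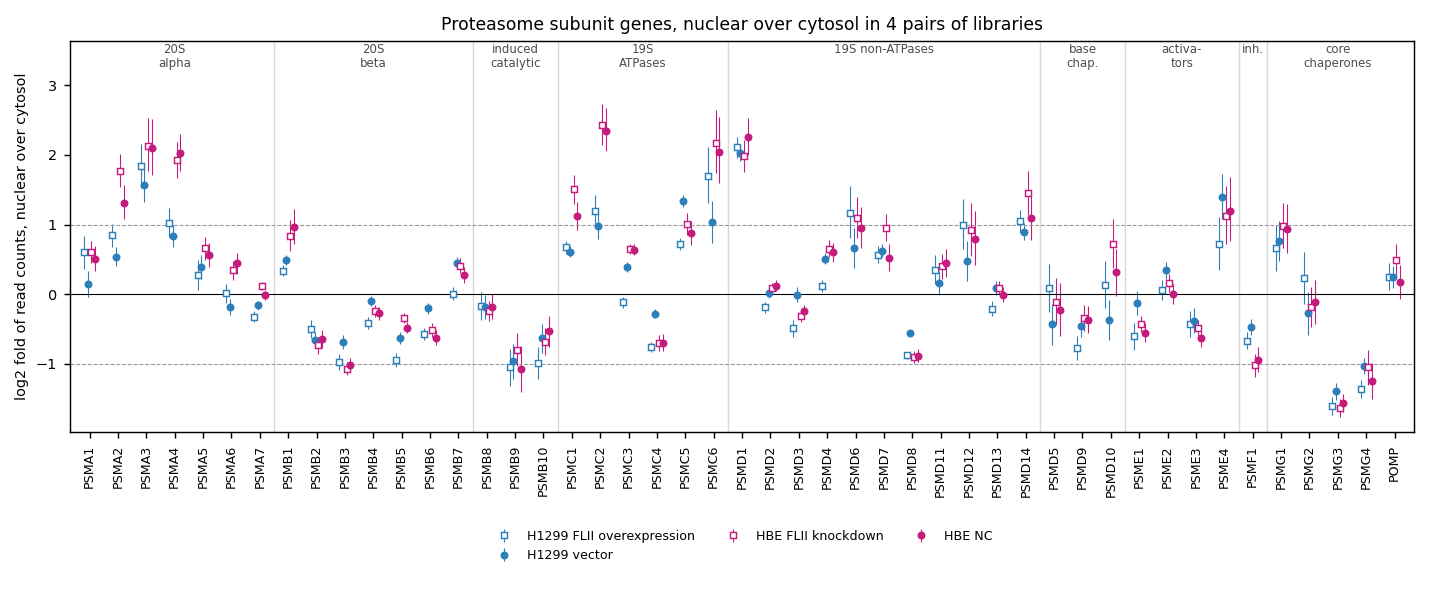
Log2 fold of read counts, nuclear over cytosol (vertical axis), for the 47 measured proteasome genes by class (horizontal axis) in FLII overexpression and vector H1299 and FLII knockdown and NC HBE; bars are 95% counting intervals and dashed lines mark 2-fold. PSMD1 lies near 2 in all 4 groups and PSMG3 between −1.63 and −1.39.

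The nuclear to cytosol balance of the members did not pass a 2-fold change with FLII. In H1299, FLII overexpression over vector, 0 of 47 were called, with 5.2% of all genes in either direction. The highest were PSMC6 (0.77, interval 0.29 to 1.25), PSMD12 (0.63), PSMD5 (0.62), PSMD6 (0.62), PSMD10 (0.61) and PSMG2 (0.61), each past 1.5-fold, and the lowest PSME4 (−0.57, interval −1.06 to −0.09), PSMC5 (−0.52, interval −0.64 to −0.39) and PSMC3 (−0.40). For PSMC6 the cytosol pair gave −0.54 and the nuclear pair 0.23, and for PSMD12 −0.53 and 0.10. The folds of that cytosol pair ran with GC content and KRT17 moved with it, as given above, and the part of either was not tested. The share of all genes past 1.5-fold was not counted for this change, so nothing about the members as a group is drawn from those past it. In HBE, FLII knockdown over NC, 0 were called with 1.22% of all genes; the highest were PSMA2 (0.46, interval 0.12 to 0.80), PSMD7 (0.43, interval 0.17 to 0.70) and PSMD10 (0.41), and the lowest PSMD1 (−0.28), PSMB10 (−0.14) and PSMB1 (−0.13).

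In the libraries labelled RNC the members differed widely within each labelled pair. For FLII overexpression over vector H1299, 11 of 47 were higher and 11 lower, where 26.1% and 23% of all genes were, and for FLII knockdown over NC HBE 5 were higher and 4 lower, where 18.9% and 11.7% of all genes were. PSME1 led the first pair, with 208 and 15.5 RPKM in the libraries labelled FLII overexpression and vector and a log2 fold of 3.53 (3.42 to 3.64). It was the lowest of the second, with 20.0 and 148 RPKM in those labelled FLII knockdown and NC and −2.53 (−2.66 to −2.42). The 2 low values lie under, and the 2 high values above, every mRNA, cytosol and nuclear level of PSME1 in either line (38.6 to 145 RPKM). PSMB1 showed the opposite, with 38.2 and 171 RPKM in the libraries labelled H1299 FLII overexpression and vector and 218 and 79.8 RPKM in those labelled HBE FLII knockdown and NC, log2 folds −2.37 and 1.80.

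PSMB1, PSMD8, PSMG4 and PSME1, which set the lines apart in the other fractions, were called in opposite directions in the 2 labelled RNC pairs. PSMG4 had 28.3 and 126 RPKM in those labelled FLII overexpression and vector H1299 (−2.37) and 93.5 and 19.1 RPKM in those labelled FLII knockdown and NC HBE (2.65). PSMD8 had 204 and 441 RPKM in the labelled H1299 pair (−1.33) and 456 and 135 RPKM in the labelled HBE pair (2.11). PSMG3, PSMD9 and the alpha subunits PSMA1 and PSMA5 also reversed, at −2.15, −1.71, 2.06 and 2.55 in the labelled H1299 pair and 2.08, 1.42, −1.09 and −1.29 in the labelled HBE pair. The remaining calls in the labelled H1299 pair were higher for PSME3 (2.37), PSMG2 (2.17), PSMA6 (1.85), PSME2 (1.79), PSMA7 (1.76), PSMB2 (1.71), PSMB9 (1.44) and PSMG1 (1.27). They were lower for PSMC1 (−1.60), PSMD14 (−1.33), PSMC4 (−1.21), PSMB10 (−1.21), POMP (−1.14) and PSMD2 (−1.05). PSMG2 was the fourth lower call of the labelled HBE pair, at −1.14. Past 1.5-fold only, PSMB6, PSMB7 and PSMC5 were lower in the labelled H1299 pair (−0.93, −0.97 and −0.99) and higher in the labelled HBE pair (0.70, 0.83 and 0.62), and PSMA4 (−0.92) and PSMC6 (−0.69) were lower and PSMA3 (0.59), PSMD10 (0.78), PSMD11 (0.76) and PSMF1 (0.68) higher in the labelled H1299 pair. In the labelled HBE pair PSMB8 (0.84), PSMC1 (0.79), PSMB10 (0.77), PSMC4 (0.73) and PSMC3 (0.65) were higher, and PSMG1 (−0.97), PSME3 (−0.86), PSMA6 (−0.85), PSMA2 (−0.72), PSME2 (−0.70), PSMD10 (−0.67), PSMA7 (−0.65), PSME4 (−0.64), PSMD1 (−0.60) and PSMD6 (−0.60) lower. By library totals instead of TMM the median over all genes shifted by 0.22 in the labelled H1299 pair and −0.35 in the labelled HBE pair. Because FLII and the line markers go against the labels, none of these folds is read as an effect of FLII.

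RNC over mRNA was set out for the libraries labelled vector and NC. Their KRT17 levels were 0.304 RPKM in vector RNC and 580.2 RPKM in NC RNC, on the side of their lines. VIM was not on that side in NC RNC, at 204 RPKM. In vector RNC it had 69.0 RPKM, below NC RNC and below the 666 to 2949 RPKM of the mRNA, cytosol and nuclear libraries of H1299. VIM had 2.77 RPKM in NC HBE mRNA, so the folds named NC HBE here set a library with both markers against 1 with little VIM. In them a difference in cells and a difference in ribosome-bound RNA cannot be told apart. The folds rest on the scaling: by library totals the median over all genes shifted by −2.19 in vector H1299 and −0.93 in NC HBE, so a fold here is larger than the ratio of the RPKM. In vector H1299 16 of 47 members were higher in RNC and 14 lower, with 32.6% and 31.6% of all genes, and in NC HBE 20 were higher and 0 lower, with 24.8% and 17%. Of the 7 beta ring genes 5 were called higher in both, PSMB3 to PSMB7, with the induced PSMB9 and PSMB10. PSMB10 had 165 RPKM in RNC, against 28.6 RPKM in mRNA of vector H1299, a log2 fold of 4.72 (4.51 to 4.95), and 125 RPKM in RNC, against 36.6 RPKM in mRNA of NC HBE, 2.70 (2.53 to 2.87). PSMB9 had 3.64 in vector H1299 and 2.96 in NC HBE, PSMB5 3.44 and 2.50, PSMB6 3.23 and 2.73, and PSMB3 3.03 and 2.30. PSMG3 was the highest member in vector H1299 at 5.00 (4.89 to 5.11), with 2.64 in NC HBE, and POMP, which starts the beta ring, had 2.24 and 2.02. Further members called higher in both were PSMB4, PSMB7, PSMD2, PSMD8, PSMD13, PSMD9 and PSMG4, at 1.21 to 2.93 in vector H1299 and 1.19 to 1.87 in NC HBE; PSMB8 (2.71) and PSMC3 (1.61) were called in vector H1299 and PSMA6, PSMB1, PSMC4, PSMC5, PSME1 and PSMF1 in NC HBE, at 1.11 to 1.68.

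The lower members in vector H1299 were PSMD12 (−2.46, interval −2.78 to −2.16; 1.61 RPKM in RNC, against 40.8 RPKM in mRNA), PSMD1 (−2.06), PSME4 (−1.57), PSMD5 (−1.57), PSMG1 (−1.49), PSMA3 (−1.46), PSMA5 (−1.35), PSMC2 (−1.32), PSMD11 (−1.23), PSME3 (−1.19), PSMD7 (−1.18), PSMG2 (−1.16), PSMD6 (−1.14) and PSMD14 (−1.11). Past 1.5-fold only, PSME2 was higher in both (0.87 in vector H1299 and 0.93 in NC HBE), PSME1 (0.76), PSMB1 (0.70) and PSMA7 (0.60) in vector H1299, and PSMB8 (1.00), PSMA4 (0.94), PSMA2 (0.91), PSMC3 (0.75), PSMD4 (0.67) and PSMC1 (0.67) in NC HBE, while PSMC6 (−0.81), PSMD10 (−0.65) and PSMB2 (−0.59) were lower in vector H1299. In NC HBE the lowest were PSMD5 (−0.61, interval −0.80 to −0.41), PSMG2 (−0.45) and PSME4 (−0.26). Across the 47 genes the log2 fold and GC content had Spearman coefficients of 0.71 in vector H1299 and 0.61 in NC HBE, with 0.53 and 0.31 over all genes. With transcript length the coefficients were −0.55 in vector H1299 and −0.47 in NC HBE, with −0.48 and −0.40 over all genes. Shorter genes thus tended to the higher folds among members and among all genes. The part of base composition and of length was not tested. Relative to the median of all genes the members stood at 0.13 in vector H1299 and 0.86 in NC HBE; with deposited RPKM these became −0.58 and 0.74, and with cytosol in place of mRNA −0.47 and 0.06. Of the ubiquitin pathway genes 6 were higher and 14 lower of 28 in vector H1299, and 6 higher and 5 lower in NC HBE. Of the antigen processing genes 1 was higher and 3 were lower of 14 in vector H1299, and 0 higher and 4 lower in NC HBE. For both lists the shares of all genes were 32.6% higher and 31.6% lower in vector H1299, and 24.8% and 17% in NC HBE.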

How the data were processed

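Per the file headers, the deposited tables hold the authors' read count and RPKM for 23709 RefSeq genes; the deposited RPKM equals the count over length and library total, as checked on the values to within 5.45e-05%. The submitters' processing notes name GRCh37 and hg19. The aligner, the counter and the use of strand are not given in the sources. Libraries were grouped by title.

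Counts were scaled within each pair by TMM (edgeR 4.0.16, R 4.3.3); 0.5 reads were added, genes with at least 20 summed reads were kept, and the interval of a fold is an exact conditional binomial one at 95%. No test was made, since each group has 1 library. Alternatives were median-of-ratios scaling (DESeq2 1.42.0), scaling by total counts, no filter, at least 100 reads, 5 reads added, deposited RPKM with 1 added and a GC trend removed. GC content came from an annotation of another build, for 98.4% to 99.0% of the genes kept and all 49 members. The fold calls were tested on simulated data. There were 22 comparisons.

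The members, classes and lists were chosen with earlier results of these data known. Named in each comparison are members called at 2-fold, those past 1.5-fold with an interval excluding no change, and the 3 highest and 3 lowest, with the catalytic genes in every library; members compared as classes, the 9 genes called in all pairs and PSMD14 and PSMD2 follow from the counts. Members between 1.5-fold and 2-fold in line pairs and nuclear over cytosol are given by range. The share of all genes past 1.5-fold was counted only for the FLII pairs of mRNA, cytosol and nuclear RNA. KRT17, VIM and named list genes were chosen after their values were seen. Coordinates are given for RefSeq promoters alone.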

Additional observations from a re-analysis of the deposited data

Results flagged for a closer look

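In the libraries labelled RNC, 9 members were called at 2-fold in both pairs and in opposite directions. Over all genes 26.1% were called higher and 23% lower in the pair labelled H1299, and 18.9% and 11.7% in that labelled HBE. The share of all genes called in opposite directions was not counted, so no result about the members as a group is drawn. The log2 folds for FLII overexpression over vector in the pair labelled H1299 come first and those for FLII knockdown over NC in the pair labelled HBE second. PSME1 had 3.53 and −2.53, PSMA5 2.55 and −1.29, PSMG2 2.17 and −1.14, and PSMA1 2.06 and −1.09. PSMB1 had −2.37 and 1.80, PSMG4 −2.37 and 2.65, PSMG3 −2.15 and 2.08, PSMD9 −1.71 and 1.42, and PSMD8 −1.33 and 2.11. The difference between the lines was not tested, since each pair holds 1 library a side. Beside it stand FLII at 5.61 and 89.2 RPKM in the RNC libraries labelled H1299 FLII overexpression and vector, and KRT17 at 2539 and 0.304 RPKM in the same libraries; their part in these folds was not tested.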

How the results depend on the processing

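No paired analysis was possible because each group has 1 library, the labels number no replicates and the kinds of RNA are not replicates of a group. Adding 5 reads or asking for at least 100 reads moved no count of members by more than 1.5 times and turned no median of the members themselves. Their median less that of all genes did turn: at 100 reads in 4 of the 6 line pairs, and in the cytosol of vector H1299 over NC HBE also with 5 reads added (0.00170) and, as in nuclear RNA of that pair, with deposited RPKM (0.14 and 0.03). With the GC trend removed this difference turned to −0.03 in H1299 cytosol, 0.01 in H1299 mRNA and −0.07 in the RNC pair labelled H1299, for FLII overexpression over vector (0.03, −0.01 and 0.16 as reported or by TMM). The values below give total counts first and deposited RPKM second unless named; RNC over cytosol in place of mRNA was chosen after seeing the data. The cause of these moves was not tested.

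Medians of the members turned sign, most but not all of them near 0. In FLII overexpression over vector H1299 the mRNA median of −0.01 became 0.0127 with the GC trend removed, and the cytosol median of 0.01 became −0.0650 and −0.0645, −0.00543 with no filter and −0.0576 with the GC trend removed. In FLII knockdown over NC HBE cytosol −0.01 became 0.00902 and 0.00897. In FLII overexpression H1299 over FLII knockdown HBE the medians became 0.0684 and 0.0647 in mRNA (−0.03 by TMM), 0.283 and 0.275 in cytosol (−0.04) and 0.0228 and 0.0221 in nuclear RNA (−0.22), and in nuclear RNA of vector H1299 over NC HBE 0.202 and 0.201 (−0.04). The change of nuclear over cytosol with FLII overexpression in H1299 became 0.0969 and 0.0850 (−0.01). RNC over mRNA became −2.15 and −2.09 in vector H1299 (0.04 by TMM), −0.506 over cytosol, and −0.0212 and −0.0208 in NC HBE (0.91).

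Counts of called members moved as follows. Total counts shift all genes of a pair by the same amount, given above, and the shares of all genes under each scaling are not set beside these counts. No result about the members as a group is drawn from the moves. Lower members were 7 and 6 (11 as reported) for FLII overexpression over vector in the RNC pair labelled H1299, and 11 and 9 (4) for FLII knockdown over NC in that labelled HBE. Nuclear over cytosol gave 15 and 14 higher (8) and 1 and 1 lower (3; 5 by median of ratios) in FLII overexpression H1299, 9 and 9 higher (5) and 1 and 1 lower (2) in vector H1299, 21 and 21 higher (11) and 1 and 1 lower (4) in FLII knockdown HBE, and 19 and 19 higher (9) and 1 and 1 lower (4) in NC HBE. Higher in all 4 groups were 9 and 8 (3), and lower in all 4 were 1 and 1 (2). For H1299 over HBE the lower counts were 1 and 1 (2) in both mRNA pairs, 1 and 1 (3) in nuclear RNA of vector over NC, and 2 and 2 (5) in both cytosol and nuclear RNA of FLII overexpression over knockdown. Lower in all 6 line pairs were 0 and 0 (1), and higher in all 6 were 5 by median of ratios (8). RNC over mRNA in vector H1299 had 5 and 5 higher (16; 9 over cytosol) and 31 and 31 lower (14), and in NC HBE 7 and 7 higher (20; 11 over cytosol) and 5 and 4 lower (0; 1 over cytosol).

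The share of reads in all members, 0.465% to 1.07%, was 0.512% to 1.27% without ribosomal protein genes in the total and 0.433% to 1.15% of summed RPKM. Without the highest member of each class it was 0.302% to 0.777%. The induced share of 9.51% to 25.9% of RPKM was 11.3% to 27.3% by reads. Depth limits PSMG4 in HBE mRNA (71 reads with FLII knockdown and 77 in NC), PSMC6 in HBE cytosol (48 and 44) and PSMB9 in H1299 mRNA (101 with FLII overexpression and 67 in vector).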
